A study of Mus musculus with 18 samples.

Results

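The MYC network genes are the 9 genes Myc, Mycn, Mycl, Max, Mxd3, Mxd4, Mxi1, Mnt and Mga, taken by symbol from a count table of mouse embryonic stem cells (ESCs). All 9 were found among the 51467 genes of the table. Wild type (WT) V6.5 ESCs and Dgcr8 knockout (KO) ESCs were grown in medium with serum, LIF and 2i, which is the pair of inhibitors PD0325901 and CHIR99021. Both genotypes were treated for 2 minutes with cycloheximide (100 ug/ml), a drug that freezes ribosomes on their messages, and lysates were separated on 10 to 50% sucrose gradients. Each gradient was split into a monosome fraction, a low polysome fraction with 2 to 4 ribosomes per message and a high polysome fraction with 4 or more. There were 3 gradients per genotype, so 6 groups of 3 libraries. No age or further treatment was given, and each genotype was represented by 1 cell line. A difference between KO and WT therefore cannot be told apart from a difference between those lines, and p-values measure the spread between gradients of a line.

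MYC, MYCN and MYCL are transcription factors that bind E-box DNA as dimers with MAX and activate genes of growth and ribosome production. MXD3, MXD4, MXI1 and MNT also pair with MAX and recruit SIN3 corepressors, so they oppose MYC at shared sites. MGA pairs with MAX as well and is the scaffold of PRC1.6, a Polycomb complex that silences germline genes in ESCs. DGCR8 is required to process primary microRNAs, and the ESC-enriched microRNAs with the AAGUGCU seed, called ESCC microRNAs, are the most abundant family that naive ESCs lose with it.

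Libraries held 1151649 to 4984833 counts. Reads of Dgcr8 itself remained in KO libraries, at 8.73 to 58.6 CPM (counts scaled by library size) against 26.1 to 79.6 CPM in WT libraries, and its level in high polysomes was lower in KO cells (log2 change -1.01 ± 0.23 SE, adjusted p = 2.76e-04). QuantSeq, the method used, reads the 3′ ends of messages, and the deletion in Dgcr8 was not located here, so these reads do not check the labels. All 8 ESC markers were detected in every group, with summed levels of 2795 to 5053 CPM. In high polysomes that sum was 4587 to 5053 CPM in WT and 3146 to 3659 CPM in KO libraries, and 2 of the 8 markers, Pou5f1 and Dppa5a, were called lower there. The 6 fibroblast markers summed to at most 13.5 CPM in any library with Dcn at 0 in 5 of the 6 groups, the 4 primitive endoderm markers to at most 7.93 CPM, and the 3 mesoderm markers to at most 9.73 CPM. The neural list of 2 genes summed to 22.6 to 48.2 CPM in WT and 8.04 to 18.3 CPM in KO libraries, nearly all of it Sox1. Whether these differences in other cells or states had a part in the results below was not tested.

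To show which microRNA seed matches the members' messages hold, mature sequences of the families searched for are printed first. They are from RefSeq (GRCm38.p6), with bases 2 to 8, the seed, in capitals. Whether these microRNAs were present in the cells was not tested. The first pair share the ESCC seed, and the seed of miR-20a, of the miR-17 family, differs from it by a shift of 1 base. Let-7 and miR-34 have unrelated seeds.
miR-294-3p: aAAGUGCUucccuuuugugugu
miR-302b-3p: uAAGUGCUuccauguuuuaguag
miR-20a-5p: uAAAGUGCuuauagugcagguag
let-7a-5p: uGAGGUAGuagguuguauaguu
miR-34a-5p: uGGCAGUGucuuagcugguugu

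The annotated 3′ UTRs of the members (GENCODE M21, build GRCm38) were searched on the sense strand for the letters AGCACTT or GCACTTA (ESCC), GCACTTT or CACTTTA (miR-17 family), CTACCTC or TACCTCA (let-7) and CACTGCC or ACTGCCA (miR-34). AGCACTT and GCACTTT overlap, so 1 stretch can count for both families. ESCC letters occurred in 5 of the 9 members, Mycn, Mxd3, Mxi1, Mnt and Mga, against 19.4% of 11734 genes with an annotated 3′ UTR of any length. Let-7 letters occurred in Mycn, Mycl, Mxd4, Mnt and Mga (15.6% of genes), miR-17 letters in Mycn, Mycl, Mnt and Mga (20.5%) and miR-34 letters in Mycn, Mxd4 and Mnt (21.6%). Neither Myc nor Max held any of them. The members' 3′ UTRs ranged from 442 nucleotides in Myc to 4616 in Mga, and longer ones hold more matches. The sites below are a part of those in the 4 members whose levels were called different in high polysomes, with the matching letters in capitals. The miR-17 matches of Mycn, Mycl and Mga and the let-7 matches of Mga and Mxd4 are not printed. A match is a description of the sequence and was not tested as a binding site.
Mycn, ESCC, chr12:12936140-12936146, minus strand: ctgcaccttagAGCACTTtgaaatacctca
Mycn, let-7, chr12:12936128-12936134, minus strand: agcactttgaaaTACCTCAtgtttatgaaa
Mycn, miR-34, chr12:12936978-12936985, minus strand: acacggacagtCACTGCCActttgcacatt
Mga, ESCC, chr2:119965450-119965457, plus strand: cttgtaattccAGCACTTAgaagactaaag
Mga, ESCC, chr2:119966752-119966759, plus strand: gacaggtcatcAGCACTTAacctttcctgt
Mycl, let-7, chr4:123001056-123001062, plus strand: agcatggagcatTACCTCAccgtcagacac
Mxd4, miR-34, chr5:34175630-34175637, minus strand: ctcaccccaccCACTGCCAccagcatgccc
The Mycn ESCC letters lie at position 860 of a 3′ UTR of 913 nucleotides, and 1 of its 2 let-7 matches begins at position 872, inside the printed stretch. Mga has 3 ESCC matches, and the 2 printed are of the longest kind, with 8 letters.

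Between KO and WT cells, Mycn and Mga were more abundant in KO high polysomes, Mycl was lower and Mxd4 higher in all 3 fractions, and Mxi1 and Mnt were called in no fraction. Myc was at or near 0 everywhere. Of the 9 members, 8 passed the filter on low counts (3 CPM or more in at least 3 libraries) and were tested, which left out Myc. Genes with an absolute log2 change over 1 at an adjusted p below 0.05 were called.

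In monosomes 2 of the 8 tested members were called, Mxd4 higher and Mycl lower, while 18.1% of the 12851 genes tested were called (8.43% higher and 9.63% lower). In low polysomes the same 2 members were called in the same directions, against 25.0% of all genes (11.4% higher and 13.6% lower). In high polysomes 4 members were called, Mycn, Mxd4 and Mga higher and Mycl lower, against 33.1% of all genes (15.1% higher and 17.9% lower). With 8 genes, these shares lay near those over all genes, so the calls describe the single members. The median log2 difference of the 8 was 0.16, 0.18 and 0.08 in monosomes, low and high polysomes, beside -0.05, 0.00 and -0.08 over all genes. KO and WT libraries did not overlap for 3, 5 and 7 members in these fractions, and for 49.2%, 57.0% and 63.6% of all genes. Levels are relative to the other messages of a fraction, and in such bulk samples fewer cells that express a gene and less of its message per cell cannot be told apart.

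**Figure D1:**
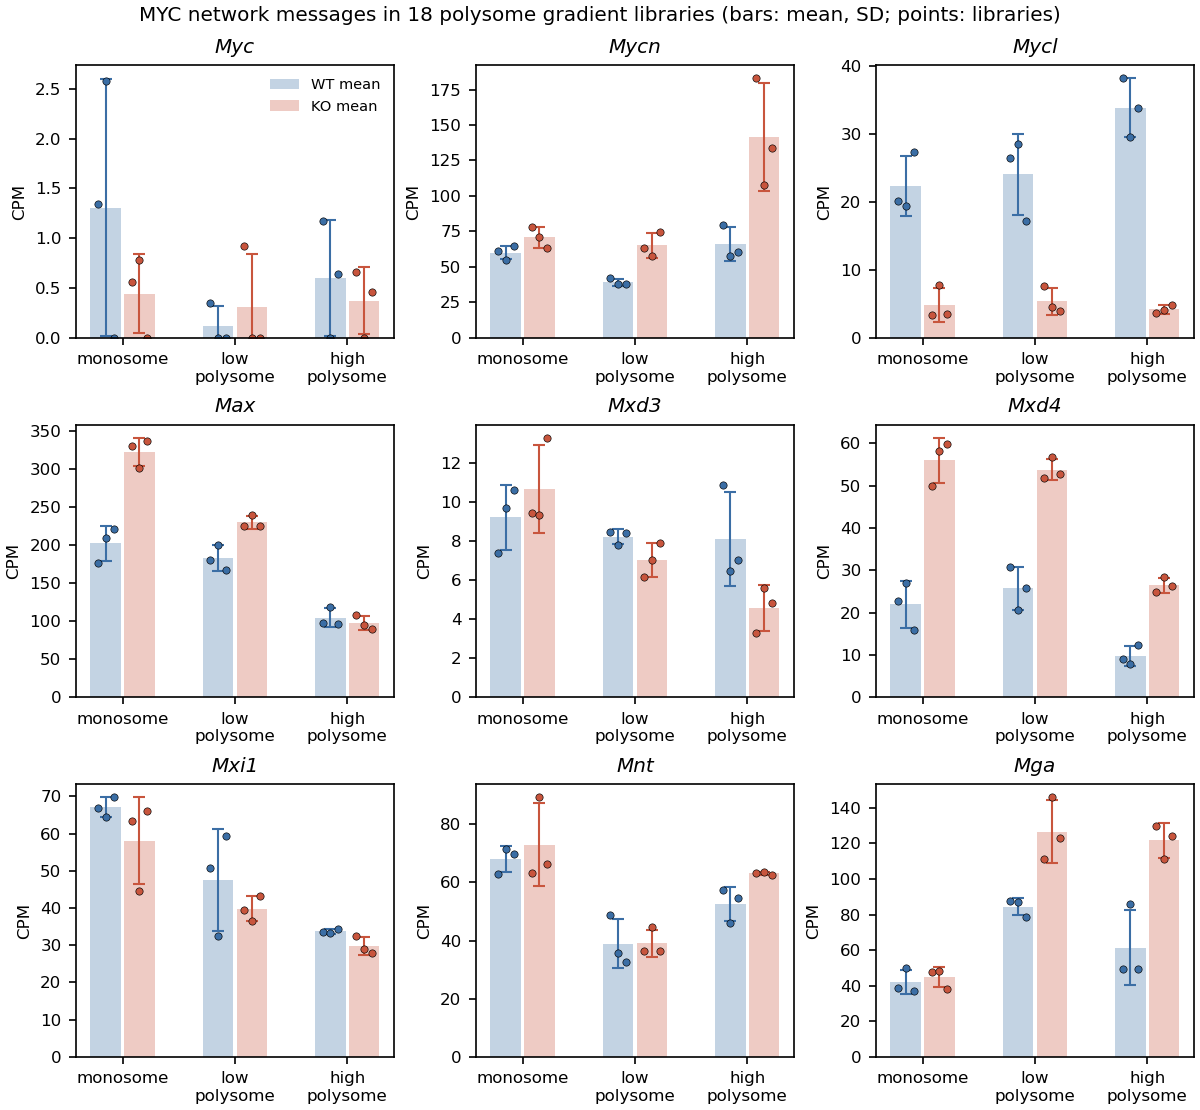
Level of each of the 9 members in CPM (linear axes from 0) in the monosome, low polysome and high polysome libraries of WT (blue) and KO (red) cells. Bars are means with SD over 3 gradients and points are single libraries. In high polysomes the KO points of Mycn, Mxd4 and Mga lie above all WT points, the KO points of Mycl lie below them, and no Myc point exceeds 2.58 CPM.

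Myc (ENSMUSG00000022346, chr15:61985391-61990374, plus strand), the founding member of the family, was barely detected. It had 22 reads among 50632643 counts in the 18 libraries, or 0.44 CPM of the plain totals (exact 95% interval 0.27 to 0.66, for counting error only). No library held more than 4 of its reads and 8 libraries held none, in which 0 reads allow a level of up to 0.781 to 2.6 CPM by a floor of 3 counts. By group the sums were 6, 1 and 5 reads in WT monosomes, low and high polysomes and 3, 3 and 4 reads in KO cells. Its mean was above that of 0.195 to 2.87% of tested genes in the 6 groups, and no difference between genotypes was detectable at this depth. No exon of another gene overlaps Myc on the same strand.

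Mycn (ENSMUSG00000037169, chr12:12936093-12941914, minus strand) was the main MYC gene of these cells. In WT monosomes its level was 60.9, 54.9 and 64.5 CPM in gradients 1 to 3, in WT low polysomes 42.0, 37.9 and 37.6 CPM, and in WT high polysomes 79.6, 57.7 and 60.5 CPM. Its KO level was 78.4, 70.7 and 63.5 CPM in monosomes, 63.6, 57.4 and 74.4 CPM in low polysomes and 183, 108 and 134 CPM in high polysomes. The genotypes overlapped in monosomes, and every KO library lay above every WT library in both polysome fractions.

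The log2 difference of Mycn between KO and WT was 0.23 ± 0.19 (SE) in monosomes (adjusted p = 0.347), 0.73 ± 0.17 in low polysomes (adjusted p = 2.97e-04) and 1.08 ± 0.15 in high polysomes (adjusted p = 6.71e-08). Mycn thus rose in high polysomes, with a fitted difference of 2.12-fold and means of 142 ± 38.2 and 65.9 ± 11.9 CPM (SD, n = 3), and the low polysome difference was under the fold threshold. Scaling to total counts, which moved the median over all genes by -0.22 in high polysomes, gave 0.86 there and leaving out KO gradient 1 gave 0.89, both under the fold threshold with adjusted p at or below 4.37e-06. From lowest to highest, the group means ran from WT low polysomes through WT monosomes, KO low polysomes, WT high polysomes and KO monosomes to KO high polysomes. All neighbours in that order from WT monosomes to KO monosomes had overlapping libraries, and KO high polysomes lay above all others.

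Mycl (ENSMUSG00000028654, chr4:122995652-123002485, plus strand), the third MYC paralogue, moved the other way. Its WT level was 20.1, 19.4 and 27.4 CPM in monosomes, 26.4, 28.5 and 17.2 CPM in low polysomes and 38.2, 29.6 and 33.8 CPM in high polysomes. Its KO level was 3.34, 7.77 and 3.53 CPM in monosomes, 7.68, 4.49 and 3.94 CPM in low polysomes and 3.64, 4.04 and 4.83 CPM in high polysomes. No KO library reached the lowest WT library in any fraction, and KO libraries held 6 to 25 Mycl reads each.

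Mycl fell in all 3 fractions. The log2 change was -2.17 ± 0.38 (SE) in monosomes (adjusted p = 1.45e-05), -2.17 ± 0.29 in low polysomes (adjusted p = 4.01e-08) and -2.95 ± 0.31 in high polysomes (adjusted p = 7.49e-11). The fitted high polysome level was 7.75-fold lower, and the means were 4.17 ± 0.61 CPM against 33.8 ± 4.34 CPM. These calls held under every alternative setting and without any single gradient.

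Since a ratio of reads within a library does not depend on how libraries are scaled, the share of each paralogue was taken among the summed reads of Myc, Mycn and Mycl. Reads at 3′ ends do not grow with message length, so levels of genes can be set beside each other on this scale, although the efficiency of capture may differ between genes. In WT libraries Mycn made up 57.1 to 74.0% of these reads and Mycl 24.4 to 42.9%. In KO libraries the shares were 88.1 to 97.7% and 1.94 to 10.6%. The lowest KO share of Mycn, in a low polysome library, had an exact 95% interval of 83.2 to 91.9% and the highest WT share, in a monosome library, one of 65.3 to 81.5%. The genotypes thus did not overlap in any fraction, and Myc made up at most 3.36% of the reads in any library.

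**Figure D2:**
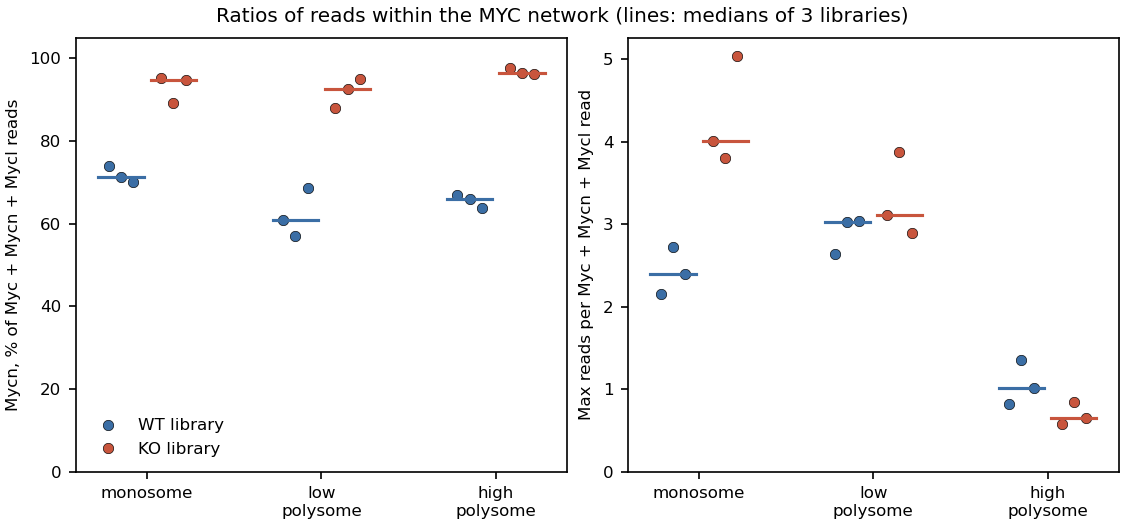
Left, Mycn reads as a percentage of Myc, Mycn and Mycl reads; right, Max reads per read of those 3 genes. Each point is 1 library of WT (blue) or KO (red) cells, by fraction, and lines are medians. The KO shares of 88.1% and more lie above all WT shares, and the KO monosome ratios of Max, 3.81 to 5.04, lie above the WT ones, 2.15 to 2.73.

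Max (ENSMUSG00000059436, chr12:76937269-76962201, minus strand), the shared partner of all these proteins, was the member with the highest level in monosomes and low polysomes of both genotypes. Its monosome level was 177, 210 and 221 CPM in WT and 330, 302 and 337 CPM in KO gradients. In low polysomes it was 181, 201 and 167 CPM in WT and 225, 240 and 226 CPM in KO cells. In high polysomes the genotypes overlapped, at 98.3, 119 and 96.8 CPM in WT and 108, 94.7 and 90.3 CPM in KO cells.

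Max was higher in KO monosomes by 0.68 ± 0.12 on the log2 scale (adjusted p = 2.43e-05) and in low polysomes by 0.33 ± 0.12 (adjusted p = 0.0155), both under the fold threshold, and its difference in high polysomes was -0.10 ± 0.13 (adjusted p = 0.507). Per read of Myc, Mycn and Mycl together, Max had 2.15 to 2.73 reads in WT and 3.81 to 5.04 in KO monosomes. In high polysomes the ratio was 0.826 to 1.36 in WT and 0.575 to 0.845 in KO cells, with overlap. Max reads thus outnumbered those of the paralogues in every monosome and low polysome library, and in high polysomes the WT ratios lay on both sides of 1 while the KO ratios were all under it.

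Mxd4 (ENSMUSG00000037235, chr5:34173883-34187720, minus strand), a MAX partner associated with cell cycle exit and differentiation, rose in every fraction. Its monosome level was 22.8, 27.1 and 15.9 CPM in WT and 50.0, 58.2 and 59.9 CPM in KO cells. In low polysomes it was 30.7, 20.6 and 25.9 CPM in WT and 51.9, 56.7 and 52.8 CPM in KO cells, and in high polysomes 8.97, 7.93 and 12.4 CPM in WT and 24.8, 28.3 and 26.2 CPM in KO cells. All KO libraries lay above all WT libraries of their fraction. The log2 changes were 1.34 ± 0.22 (SE; adjusted p = 4.16e-06), 1.09 ± 0.16 (adjusted p = 2.78e-07) and 1.42 ± 0.23 (adjusted p = 1.2e-06) in monosomes, low and high polysomes, and without WT gradient 2 the low polysome change was 0.92 (adjusted p = 5.94e-05), under the fold threshold.

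Mxd3 (ENSMUSG00000021485, chr13:55325168-55329823, minus strand), which is expressed in proliferating cells, had low levels of 3.31 to 13.3 CPM and 10 to 34 reads per library. In high polysomes it was at 10.9, 6.49 and 7.01 CPM in WT and 3.31, 5.59 and 4.83 CPM in KO cells, which did not overlap. The log2 difference there was -0.78 ± 0.31 (SE; adjusted p = 0.0308), under the fold threshold, and -1.003 when libraries were scaled to total counts (adjusted p = 0.00543). In monosomes and low polysomes the differences were 0.22 ± 0.33 and -0.22 ± 0.27 (adjusted p = 0.641 and 0.523).

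Mxi1 (ENSMUSG00000025025, chr19:53310518-53375810, plus strand), another MXD protein, was called in no fraction. Its monosome levels were 64.5 to 69.8 CPM in WT and 44.7 to 66.2 CPM in KO cells, its low polysome levels 32.4 to 59.3 and 36.5 to 43.3 CPM, and its high polysome levels 33.2 to 34.4 and 27.8 to 32.4 CPM. The log2 differences were -0.24 (95% interval -0.61 to 0.13), -0.20 (-0.54 to 0.15) and -0.19 (-0.57 to 0.18) in monosomes, low and high polysomes, with adjusted p from 0.322 to 0.379. These intervals leave out a change as large as the fold threshold in either direction.

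Mnt (ENSMUSG00000000282, chr11:74830920-74845725, plus strand), a widely expressed antagonist of MYC, was not called in any fraction either. Its levels were 63.0 to 71.6 CPM in WT and 63.4 to 89.3 CPM in KO monosomes, 32.5 to 48.7 and 36.3 to 44.5 CPM in low polysomes, and 46.1 to 57.3 and 62.5 to 63.7 CPM in high polysomes. The high polysome libraries did not overlap, yet the log2 difference of 0.27 (95% interval -0.04 to 0.57) had an adjusted p of 0.12. The differences in monosomes and low polysomes were 0.09 (-0.24 to 0.43) and 0.02 (-0.30 to 0.35), with adjusted p = 0.694 and 0.914.

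Mga (ENSMUSG00000033943, chr2:119897228-119969581, plus strand), the PRC1.6 scaffold, had its largest difference between the genotypes in high polysomes. In monosomes it was at 38.8, 49.7 and 37.1 CPM in WT and 47.8, 48.2 and 38.4 CPM in KO cells, which overlapped. In low polysomes it was at 87.4, 87.0 and 78.9 CPM in WT and 111, 146 and 123 CPM in KO cells, and in high polysomes at 49.1, 85.8 and 49.4 CPM in WT and 130, 111 and 124 CPM in KO cells. In both polysome fractions every KO library lay above every WT library, and WT gradient 2 stood above the other two of its group in high polysomes.

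The log2 differences of Mga were 0.07 ± 0.21 (SE; adjusted p = 0.814), 0.58 ± 0.15 (adjusted p = 0.00103) and 1.03 ± 0.15 (adjusted p = 2.64e-07) in monosomes, low and high polysomes. Mga thus rose in high polysomes, close to the fold threshold. The value fell under that threshold with total counts (0.82), a filter of 10 CPM (0.98), edgeR (0.99) and DESeq2 (0.995), without WT gradient 1 (0.91) or 3 (0.89) and without KO gradient 1 (0.99), with adjusted p at or below 5.22e-05 in each.

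**Figure D3:**
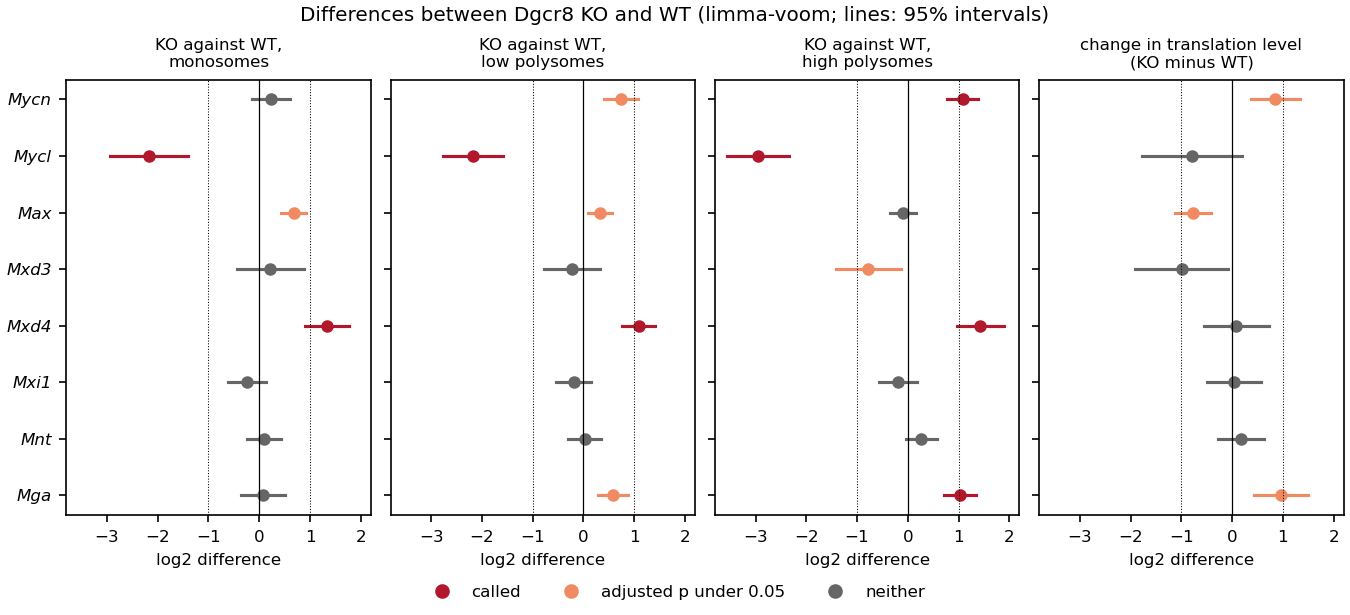
Log2 difference between KO and WT cells for the 8 tested members in monosomes, low polysomes and high polysomes, and the change in translation level (right). Points are limma-voom estimates from 3 gradients per genotype, lines are 95% intervals and dotted lines mark a log2 difference of 1. Red points were called, orange points had an adjusted p under 0.05 only, and in the right panel no point is red.

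Next, it was asked how the members were distributed between fractions. The translation level of a gene is its high polysome to monosome ratio, which sets aside its overall abundance. In WT cells Mycl (log2 ratio 0.62 ± 0.24 SE) and Mga (0.49 ± 0.20) leaned to high polysomes with adjusted p = 0.025 and 0.0376, and Mycn (0.12 ± 0.18) and Mxd3 (-0.23 ± 0.33) had adjusted p of 0.611 and 0.592. Mycl no longer had an adjusted p under 0.05 without WT gradient 1 (0.194). The same held for Mga without WT gradient 1, 2 or 3 (0.0663, 0.12 and 0.0522) and with a filter of 10 CPM (0.0827). Mnt was at -0.38 ± 0.17 (adjusted p = 0.0525), Max at -0.95 ± 0.13 (adjusted p = 4.59e-08), Mxi1 at -0.99 ± 0.19 (adjusted p = 3.05e-05) and Mxd4 at -1.18 ± 0.27 (adjusted p = 3.26e-04). Only Mxd4 was called in WT cells, lower in high polysomes, against 30.1% of all genes (19.3% lower). With the gradient as a block Mxi1 was also called (-1.01, adjusted p = 1.15e-06), and without WT gradient 2 the value for Mxd4 was -0.80 (adjusted p = 0.0451), which left no member called.

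In KO cells 4 of the 8 members were called, Mga higher and Max, Mxd3 and Mxd4 lower in high polysomes than in monosomes, against 43.0% of all genes (17.5% higher and 25.5% lower). The log2 ratio was 1.45 ± 0.17 (SE) for Mga (adjusted p = 6.72e-10), -1.73 ± 0.12 for Max (adjusted p = 6.03e-16), -1.22 ± 0.31 for Mxd3 (adjusted p = 6.6e-04) and -1.09 ± 0.16 for Mxd4 (adjusted p = 2.01e-07). Mycn was at 0.97 ± 0.15 (adjusted p = 6.05e-07) and Mxi1 at -0.95 ± 0.18 (adjusted p = 1.41e-05), both just under the fold threshold, whereas Mycl (-0.17 ± 0.43) and Mnt (-0.20 ± 0.15) had adjusted p of 0.744 and 0.218. Mycn passed the threshold with edgeR (1.002), DESeq2 (1.01) and no filter (1.02) and without WT gradient 2 (1.01) or KO gradient 2 (1.15). Mxi1 passed it with total counts (-1.20), a filter of 10 CPM (-1.06) and without KO gradient 2 (-1.13).

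The length of the coding sequence, which bounds how many ribosomes a message can carry, varied widely among the members. It was 483 nucleotides in Max, 621 in Mxd3, 630 in Mxd4 and 687 in Mxi1, then 1107 in Mycl, 1365 in Myc, 1389 in Mycn and 1776 in Mnt, and 9129 in Mga, beside a median of 1363 over 11764 genes. The 4 shortest had negative log2 translation levels in both genotypes, but so did Mnt, and that of Mxd3 in WT cells was 0.027 without WT gradient 2. Mga had the highest of the 8 in KO cells and Mycl in WT cells. This is a description of 8 genes, and the part of length in the ratios was not tested.

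The change in translation level between the genotypes was tested as the interaction of genotype and fraction. No member was called, while 15.1% of all genes were (808 higher and 1132 lower, or 282 and 2070 with scaling to total counts). Without a fold threshold 3 members had an adjusted p under 0.05, Mycn and Mga higher and Max lower, against 28.2% of all genes, and 4 members had an unadjusted p under 0.05, the fourth being Mxd3. By edgeR and DESeq2 the count of members called was 0 as well. The median change of the 8 was 0.07, beside 0.01 over all genes.

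For Mycn, the log2 translation level in gradients 1 to 3 was 0.38, 0.07 and -0.09 in WT and 1.22, 0.61 and 1.06 in KO cells. All KO gradients lay above all WT gradients, a separation that Mga, Max and Mxd3 also showed and that 41.7% of all genes had. The change was 0.85 ± 0.24 (SE; 95% interval 0.37 to 1.34, adjusted p = 0.00581). For Mga the gradients gave 0.33, 0.78 and 0.40 in WT and 1.43, 1.20 and 1.67 in KO cells, again without overlap, with a change of 0.96 ± 0.26 (0.43 to 1.49, adjusted p = 0.00462). When libraries were scaled to total counts, which moved the median over all genes by -0.33, the changes of Mycn and Mga were 0.53 and 0.64 with adjusted p = 0.0907 and 0.0662, and no longer passed. Leaving out 1 gradient gave 0.73 to 1.03 for Mycn and 0.83 to 1.09 for Mga.

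For Max, the gradients gave -0.85, -0.82 and -1.18 in WT and -1.61, -1.66 and -1.89 in KO cells. The 2 sets did not overlap, and the change was -0.78 ± 0.18 (95% interval -1.13 to -0.42, adjusted p = 7.48e-04), with -1.11 under scaling to total counts. Thus the larger Max level of KO monosomes was not matched in high polysomes.

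Mxd3 had WT gradients at 0.53, -0.53 and -0.55 and KO gradients at -1.34, -0.67 and -1.34. The change of -0.99 ± 0.45 had an adjusted p of 0.0996, and WT gradient 1 stood apart, since without it the change was -0.63 (adjusted p = 0.423). With total counts it was -1.32 (adjusted p = 0.0224). Mycl changed by -0.79 ± 0.49 (95% interval -1.77 to 0.20, adjusted p = 0.24), with few KO reads behind it, and by -0.35 without KO gradient 2 (adjusted p = 0.718).

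The changes of Mxd4, Mxi1 and Mnt were 0.09 (95% interval -0.55 to 0.73), 0.04 (-0.49 to 0.57) and 0.17 (-0.28 to 0.62), with adjusted p from 0.607 to 0.926, and all 3 turned negative with total counts. For Mxd4, the higher level of KO cells was thus present in monosomes and high polysomes alike.

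**Figure D4:**
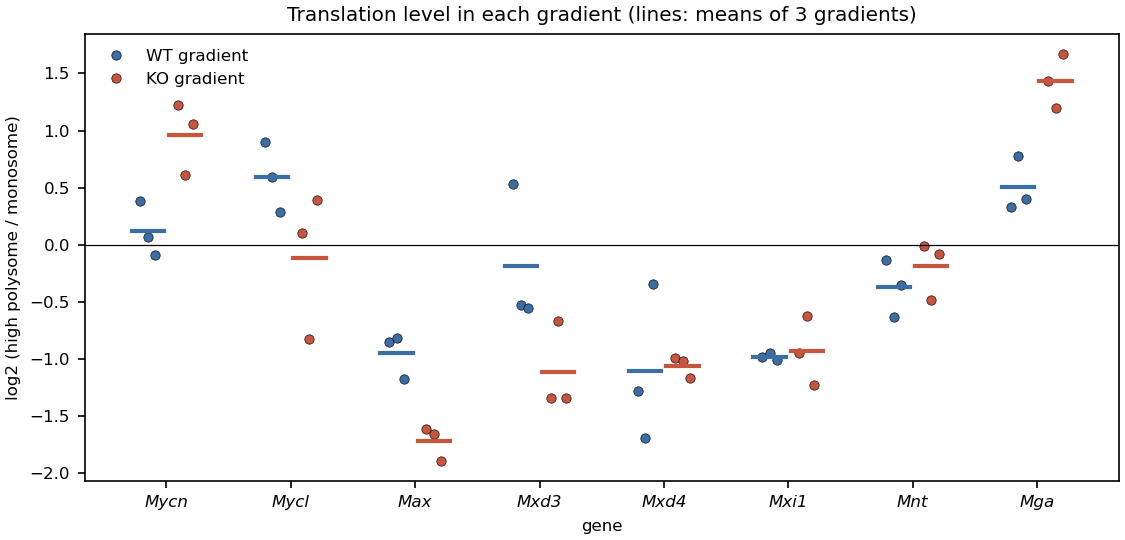
Log2 ratio of high polysome to monosome level (CPM with a prior count of 2) in each of the 3 WT (blue) and 3 KO (red) gradients for the 8 tested members, with lines at the means. KO points of Mycn and Mga lie above and those of Max and Mxd3 below all WT points, and the points of Mxd4, Mxi1, Mnt and Mycl overlap.

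The balance between MYC genes and their antagonists was taken as the reads of Myc, Mycn and Mycl over those of Mxd3, Mxd4, Mxi1, Mnt and Mga. It was 0.345 to 0.452 in WT and 0.274 to 0.352 in KO monosomes, 0.267 to 0.362 and 0.213 to 0.297 in low polysomes, and 0.486 to 0.744 and 0.472 to 0.738 in high polysomes. The genotypes overlapped in all 3 fractions, so the ratio of summed reads did not fully separate them although its parts differed. KO medians were lower in each fraction. They were 0.317 against 0.414 in monosomes, 0.295 against 0.304 in low polysomes and 0.567 against 0.602 in high polysomes. With 3 libraries per group, a difference in this ratio was not tested.

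Among genes whose level followed that of Mycn most closely over the 18 libraries, the first 3 of 7448 compared were Hif1an (Pearson r = 0.96 of log2 CPM), which encodes an asparagine hydroxylase that inhibits HIF, Gpd2 (r = 0.95), a mitochondrial glycerol-3-phosphate dehydrogenase, and Plod3 (r = 0.95), a lysyl hydroxylase of collagen. The libraries fall into 6 groups and share their fractions, so this describes a common pattern of groups and no p is given. Myc had too few reads for such a comparison.

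The proteins that work with the network were then examined by lists. Of 4 further genes of the wider MAX and MLX network, none was called for the change in translation level. Mlxipl, the glucose-responsive factor ChREBP, was the single one called against WT, lower in all 3 fractions (log2 -2.06 in monosomes and -2.23 in low polysomes, adjusted p = 4.29e-05 and 1.22e-04). It is named after its values were seen, since it had few reads, its monosome means being 22.2 CPM (WT) and 5.01 CPM (KO) and its high polysome means 3.59 and 0.854 CPM.

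Of 10 MYC coactivators, 2 changed in translation level, both upward, where 15.1% of all genes changed, and the list median was 0.44 beside 0.01 over all genes. Among them was Ep400, a chromatin remodeller of the TIP60 complex, with a change of 1.11 ± 0.21 (SE; adjusted p = 9.33e-05). Ep400 also rose in high polysomes, from 68.8 ± 8.72 to 142 ± 13.5 CPM (log2 1.05, adjusted p = 2.74e-09). It was the 1 coactivator of 10 called there, a smaller share than the 33.1% of all genes. No coactivator was called in monosomes or low polysomes, where 18.1% and 25.0% of all genes were. On the side of the antagonists, 1 of 8 SIN3 complex genes was called, Sap30, a subunit that stabilises the complex, which fell in high polysomes from 120 ± 21.3 to 54.3 ± 9.19 CPM (log2 -1.14, adjusted p = 3.27e-08) and in translation level by 1.19 (adjusted p = 6.76e-04). That is a smaller share of the list than the 33.1% of all genes called in high polysomes, and about the 15.1% called for translation level.

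Of 10 partners of MGA in PRC1.6, 3 were called lower in high polysomes, none was called higher and 7 were not called, where 17.9% of all genes were called lower. The list had a median of -0.61 beside -0.08 over all genes. They were Cbx1 and Cbx3, heterochromatin proteins that read methylated H3K9, and Tfdp1, the dimer partner of E2F factors. Cbx1 fell from 247 ± 27.4 to 102 ± 14.5 CPM (log2 -1.28 ± 0.13, adjusted p = 5.26e-11) and Cbx3 from 180 ± 28.0 to 76.8 ± 8.02 CPM (log2 -1.22 ± 0.14, adjusted p = 1.62e-09). In translation level 3 were called lower and none higher, where 15.1% of all genes were called in either direction (1132 of 12851 lower). They were Cbx1 (-1.46), Cbx3 (-1.07) and Rybp (-1.53, adjusted p = 8.59e-04), a RING1 binding protein with fewer reads named after its values were seen. None of the 10 was called in monosomes, where 18.1% of all genes were. In low polysomes Tfdp1 alone was called, lower (log2 -1.40, adjusted p = 9.69e-09), where 25.0% of all genes were called.

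Of 11 genes that control MYC protein turnover, 1 rose and 1 fell in high polysomes, where 33.1% of all genes were called. Skp2, a ubiquitin ligase subunit, rose from 75.5 ± 14.3 to 181 ± 10.7 CPM (log2 1.27 ± 0.13, adjusted p = 3.38e-11). It was also called higher in low polysomes, where it went from 47.5 ± 5.85 to 104 ± 8.46 CPM (log2 1.13, adjusted p = 3.85e-09). Gsk3a, a kinase that marks MYC for degradation, was the one gene of the 11 called for translation level (-1.12, adjusted p = 9.98e-04), where 15.1% of all genes were called. Its high polysome mean was 53.3 CPM in WT and 32.1 CPM in KO cells.

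Of 26 genes that MYC is known to activate, high polysomes had 2 called higher and 4 lower, low polysomes 1 each way, and monosomes 1 higher and 2 lower, with list medians of -0.16, -0.09 and -0.43. Over all genes 33.1%, 25.0% and 18.1% were called, larger shares than in the list, with medians of -0.08, 0.00 and -0.05. Ccnd2, a D-type cyclin, was the gene called higher in all 3 fractions, with 15.7 ± 3.51 and 97.1 ± 2.23 CPM in WT and KO high polysomes (log2 2.62, adjusted p = 8.74e-10), and Tfrc, the transferrin receptor, rose in high polysomes from 148 ± 25.5 to 375 ± 19.5 CPM. Odc1, the first enzyme of polyamine synthesis, and Srm, spermidine synthase, fell in high polysomes (log2 -1.52 and -1.25, adjusted p = 7.43e-06 and 7.81e-11), as did Eif4e, the cap-binding initiation factor, from 101 ± 2.70 to 50.0 ± 1.11 CPM. Npm1, a nucleolar protein, fell in monosomes from 834 ± 106 to 356 ± 18.8 CPM (log2 -1.22, adjusted p = 2.95e-10).

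In translation level 2 of these 26 targets rose and 2 fell, about the 15.1% of all genes. Shmt2, a mitochondrial enzyme of serine metabolism, rose by 1.29 ± 0.20 (adjusted p = 3.65e-06) and Cad, an enzyme of pyrimidine synthesis, by 1.06 ± 0.23 (adjusted p = 4.27e-04). Shmt2 was called lower in monosomes (log2 -1.07, adjusted p = 2.52e-07), and its high polysome difference was 0.22 (adjusted p = 0.153). Cad differed by -0.57 in monosomes and 0.49 in high polysomes. Nop16 and Nme1, a nucleolar protein and a nucleoside diphosphate kinase, fell by 1.39 ± 0.20 and 1.10 ± 0.17 (adjusted p = 7.86e-07 and 2.92e-06). The median of the 26 was 0.34, beside 0.01 over all genes.

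Of 11 genes that MYC is known to repress, 10 were tested, and in high polysomes 2 were called higher and 2 lower, against 15.1% and 17.9% of all genes, with a median of -0.46 beside -0.08. The list median had the opposite sign elsewhere, at 0.381 in monosomes and 0.355 in low polysomes, beside -0.051 and 0.004 over all genes. Calls there were 2 up and 1 down for monosomes, and 2 up and none down for low polysomes. Cdkn1a, the cell cycle inhibitor p21, rose in high polysomes from 349 ± 38.7 to 813 ± 29.0 CPM (log2 1.22 ± 0.11, adjusted p = 1.81e-12). Ndrg1, a stress response gene, rose from 16.9 ± 0.90 to 45.9 ± 2.07 CPM (log2 1.43 ± 0.18, adjusted p = 5.58e-09). Both were also called higher in low polysomes. In monosomes Ndrg1 was called higher (log2 1.20, adjusted p = 4.7e-04), and Cdkn1a differed by 0.60 (adjusted p = 4.36e-05), under the fold threshold. The genes called lower, named after their values were seen, were the cell cycle inhibitors Cdkn1c (log2 -1.93) and Cdkn2b (log2 -1.92), which had few reads, with high polysome means of 7.57 and 4.3 CPM in WT and 2.35 and 1.32 CPM in KO cells. Gadd45b, a growth arrest gene, fell in translation level by 1.41 ± 0.20 (adjusted p = 9.97e-07), and the second gene called there, Cdkn2b, had means of at most 4.3 CPM in monosomes and high polysomes of both genotypes. Over all genes 15.1% were called for translation level. Cdkn2b was called higher in KO monosomes (log2 2.43, adjusted p = 0.0175), with means of 0.446 CPM in WT and 3.14 CPM in KO cells. The log2 difference of Gadd45b was 0.95 in monosomes (adjusted p = 3.28e-06) and -0.47 in high polysomes (adjusted p = 0.00295).

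**Figure D5:**
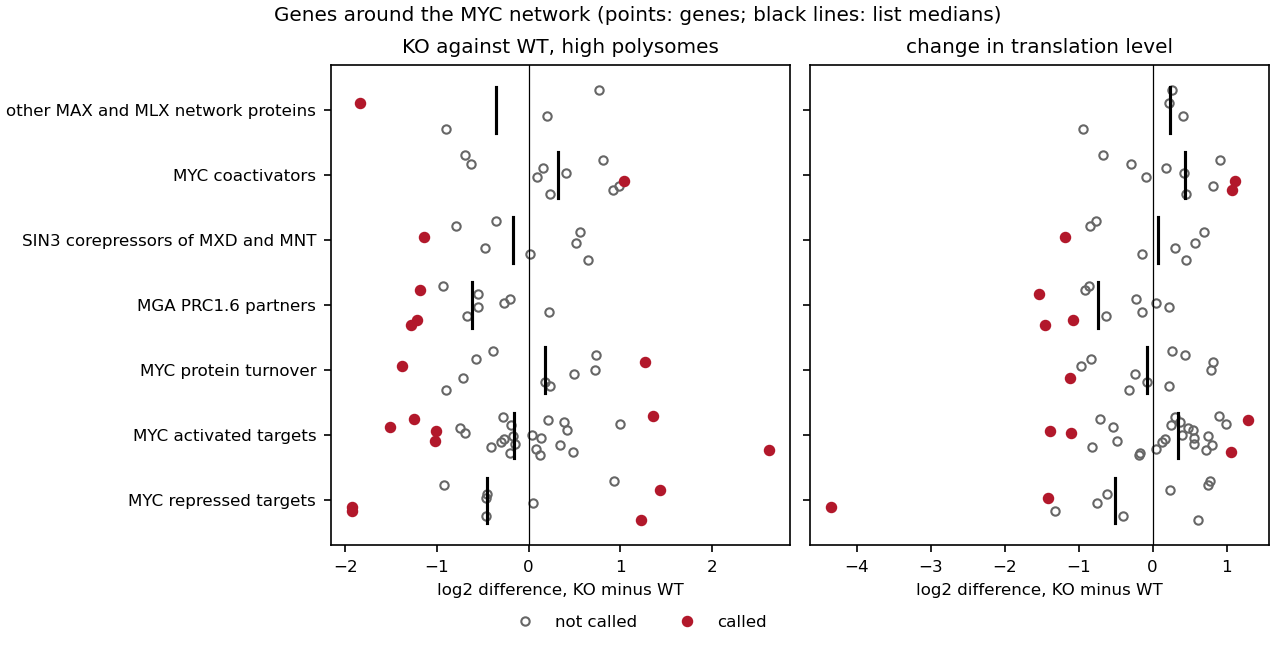
Log2 difference between KO and WT cells in high polysomes (left) and in translation level (right) for each tested gene of 7 lists around the MYC network. Filled red points were called, open points were not, and black lines are list medians. The PRC1.6 partners have 3 red points below 0 in each panel, and the activated targets have red points on both sides.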

How the data were processed

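Gradient fractions of the 2 ESC genotypes were sequenced with the QuantSeq 3′ FWD kit, in 18 libraries. The authors deposited read counts for each gene, without normalization. The submitters' processing notes name cutadapt 1.14, STAR 2.5.3a, featureCounts 1.5.3 and mm10. Per the study's methods, reads that aligned to 1 locus were counted by strand over exons, so the 3 members with exons of a gene on the opposite strand were kept apart from it, and no member shared exons with a gene on its own strand. No use of molecular identifiers was stated, so PCR copies count as reads. The exact intervals of Myc reads and of Mycn shares cover counting error only. Those of log2 differences come from the limma fit and rest on the spread between libraries.

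From these counts, 92 spike-in entries were removed (at most 0.00215% of reads). Symbols came from GENCODE M21 (GRCm38), which matched 51274 of 51467 genes, and coordinates are 1-based. The 12851 genes that reached 3 CPM in 3 libraries or more were fitted with limma-voom (limma 3.58.1, edgeR 4.0.16 for TMM factors, R 4.3.3) with 1 mean per group, as the study used limma and this filter. All tests were two-sided, p-values were adjusted by Benjamini-Hochberg over every gene tested, and each adjusted p is from this fit unless another tool is named. CPM are scaled by TMM factors. The fit was tested on simulated data. DESeq2 1.42.0 and edgeR's quasi-likelihood test were alternatives, as were other scalings and filters, a replicate block and leaving out each gradient.

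The fractions of a gradient share its number in the titles, so numbers pair libraries within a genotype. Deviations of such pairs from their group means correlated at 0.032 to 0.135. Libraries of the same number and fraction from the 2 genotypes correlated at 0.000175 to 0.102. In high polysomes these values were 0.0699 to 0.0892, against -0.0994 to 0.0172 for differing numbers. Whether gradients of the same number shared a batch across genotypes was not tested. The KO and WT comparisons share libraries with the translation levels. The members and lists were chosen with earlier results of these data known. All members and Dgcr8 are named. From each list and each of the 4 comparisons of KO with WT, at most 3 genes higher and 3 lower could be named, by size of log2 change, if called and with 50 counts or more on average, and the text gives a part of them. The values of some listed genes are not reported here, though the list counts include them.

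Levels are relative to a fraction's messages, and the amount of RNA in a fraction was not measured. Each 3′ UTR is that of 1 annotated transcript, the APPRIS principal one where tagged.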

Additional observations from a re-analysis of the deposited data

Results flagged for a closer look

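The high polysome to monosome ratio differed between the genotypes, by the interaction of genotype and fraction, in 3 members. Mga shifted toward high polysomes in KO cells by 0.96 on the log2 scale (adjusted p = 0.00462) and Mycn by 0.85 (adjusted p = 0.00581), while Max shifted away from them by -0.78 (adjusted p = 7.48e-04). In each of the 3 genes, all 3 KO gradients lay on one side of all 3 WT gradients, which was also the case for 41.7% of all genes. None of the 3 changes exceeded the log2 threshold of 1, and 28.2% of all genes had an adjusted p under 0.05. With total counts the adjusted p were 0.0907 for Mycn (0.53) and 0.0662 for Mga (0.64). No test for outlying libraries was run, since each group held 3.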

How the results depend on the processing

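Across 672 recomputed log2 changes of the 8 members in 6 comparisons, 624 kept their direction and their side of the call, 11 kept the direction but were no longer called, 18 became called and 19 reversed. The count of members called for the change in translation level was 0, and 2 with total counts (Max and Mxd3, both lower), 3 by adjusted p without a fold threshold, and 0 to 2 without 1 gradient. It was 2 in low polysomes, 5 without the fold threshold and 1 to 2 without 1 gradient. In high polysomes it was 4, then 3 with total counts, a filter of 10 CPM, edgeR or DESeq2, and 5 without the fold threshold. With total counts the 3 were Mxd4, higher, and Mycl and Mxd3, lower. The high polysome count was 2 to 4 without 1 gradient (2 without KO gradient 1). For the WT translation level it was 1, then 3 with a filter of 10 CPM, 5 without the fold threshold, 2 with the replicate block and 0 to 2 without 1 gradient. For the KO translation level it was 4, then 5 with total counts, no filter, a filter of 10 CPM, edgeR or DESeq2, 6 without the fold threshold and 4 to 6 without 1 gradient (6 without KO gradient 2). The replicate block changed no other call.

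Over all genes, total counts gave 1426 calls higher and 3114 lower in high polysomes (1946 and 2303 as reported) and 1551 and 3932 for the KO translation level (2243 and 3277).

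Reversed values belonged to changes near 0. With total counts the translation level changes of Mxd4, Mxi1 and Mnt were -0.25, -0.29 and -0.16. That of Mxi1 was -0.012 without a filter and -0.016 with only the libraries compared. For Mnt in low polysomes the difference was -0.004 with total counts, -0.002 with DESeq2 size factors, -0.028 with a filter of 10 CPM and -0.022 with DESeq2. Without 1 gradient, the ranges that crossed 0 were -0.26 to 0.46 for Mxd4 and -0.14 to 0.22 for Mxi1 in translation level change, -0.068 to 0.195 for Mnt in monosomes, -0.093 to 0.183 for Mnt in low polysomes, -0.17 to 0.02 for Max in high polysomes, -0.002 to 0.22 for Mycn and -0.592 to 0.027 for Mxd3 in WT translation level, and -0.52 to 0.27 for Mycl in KO translation level. Their cause was not tested. Depth limits Myc, which was too low to test, and Mxd3 and Mycl, which had 10 to 34 and 6 to 106 reads per library.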
